A study of Mus musculus with 12 samples.

Results

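The H/ACA small nucleolar RNAs and the small Cajal body RNAs were examined in livers of mice given silver nanoparticles. They were taken as the genes whose symbol begins with Snora or Scarna followed by a digit, measured by a probe set that names exactly 1 symbol, and where a gene had several such probe sets the brightest on average was kept. This gave 24 RNAs of 30063 genes in all, 18 Snora and 6 Scarna. A further 23 such RNAs were named only by probe sets that list several genes, and were not analysed here; Snora44, Snora61, Snora64, Snora74a and Scarna13 are among them. Of the 24, 22 had a mean log2 signal above 3.93, the lower limit for testing; Scarna8 and Snora35 lay below it.

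H/ACA RNAs fold into hairpins that base-pair with a target RNA and place dyskerin (Dkc1), with its partners Nop10, Nhp2 and Gar1, at the uridine to be turned into pseudouridine. Snora RNAs mostly act on ribosomal RNA in the nucleolus, whereas Scarna RNAs stay in Cajal bodies, where they guide modification of the spliceosomal RNAs, and some of them are of the C/D or mixed type rather than H/ACA. In mammals nearly all are cut and trimmed from introns of host genes, so that the host's messenger RNA and the small RNA come from one transcript but differ in how they are matured and decay.

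All mice, 3 months old, were C57BL/6J -Oca2p-un/J animals, a strain with an unstable mutant allele of the pigmentation gene Oca2. The PVP-AgNP group received 20 nm silver particles coated with polyvinylpyrrolidone, the cit-AgNP group received 20 nm silver particles coated with citrate, both at 4 mg of silver per kg by daily oral gavage for 7 days, and the control group received water. Each group held 2 females and 2 males, and the livers were taken 24 h after the last dose. Replicates 1 and 2 of both exposed groups and replicates 2 and 4 of the controls were female.

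Of 7 hepatocyte markers, 5 were measured, and Alb, Ttr and Cyp2e1 stood at the ceiling of the scale, 19.93, on all 12 arrays. The Kupffer cell marker Cd5l averaged 11.98 in PVP-AgNP, 11.14 in cit-AgNP and 10.62 in control livers, and the neutrophil marker S100a8 averaged 9.28 in PVP-AgNP, 8.57 in cit-AgNP and 7.18 in control livers. The mean over all 5 Kupffer markers ran from 8.50 to 10.79 in PVP-AgNP, from 8.35 to 9.80 in cit-AgNP and from 8.29 to 9.25 in control livers, and that over all 5 neutrophil markers from 5.90 to 7.55 in PVP-AgNP, from 5.72 to 6.33 in cit-AgNP and from 4.47 to 6.16 in control livers. All 5 stellate cell markers averaged lower in PVP-AgNP than in control livers, among them Lrat, at 7.61 in PVP-AgNP, 8.38 in cit-AgNP and 8.79 in control livers. The endothelial markers did not all lie on one side. Lyve1 (6.73 in PVP-AgNP and 7.41 in control), Oit3 (7.70 in PVP-AgNP and 8.44 in control) and Clec4g (9.50 in PVP-AgNP and 9.72 in control) averaged lower. Stab2 (9.25 in PVP-AgNP and 9.22 in control) and Fcgr2b (8.20 in PVP-AgNP and 8.14 in control) averaged higher. The part of these cells in the results below was not tested. In whole liver, fewer cells of a type and less RNA per cell cannot be told apart. The area that separates exon from intron control probe sets, a measure of array quality in which 1 is full separation, was 0.802 ± 0.0198 in PVP-AgNP, 0.820 ± 0.00624 in cit-AgNP and 0.824 ± 0.016 in control livers (SD, n = 4 each). PVP-AgNP replicates 1 and 4 had the lowest areas, 0.778 and 0.794.

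Of the 24 RNAs, 23 lie inside another gene in the RefSeq annotation of GRCm38.p6, in 23 host genes of which 19 code for protein and 4 are long non-coding RNAs; Scarna2 alone lies between genes. Snora73a and Snora73b lie in the non-coding Snhg3, Snora20 in Tcp1, a subunit of the CCT chaperonin, Snora2b in Kansl2, a subunit of a histone acetyltransferase complex, Snora41 in the elongation factor gene Eef1b2, Snora62 in Rpsa, a ribosomal protein gene, and Snora75 in Ncl, which encodes nucleolin. RNAs of this kind are usually transcribed from their host's start, so the starts of the 6 hosts whose RNAs the results turn on are shown, as 40 bases before and 40 bases from the annotated start, 5′ to 3′ on the transcript strand (RefSeq, GRCm38.p6). Capitals mark a C followed by at least 4 further C or T that begins within 5 bases of the annotated start, the letters of a terminal oligopyrimidine start. Such letters farther from the annotated start, as in the Rpsa window, were neither marked nor counted. 
Tcp1 (host of Snora20, chr17:12916289-12916368, plus strand): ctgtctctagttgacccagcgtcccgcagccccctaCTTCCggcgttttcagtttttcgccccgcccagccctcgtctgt
Snhg3 (host of Snora73a and Snora73b, chr4:132353647-132353726, minus strand): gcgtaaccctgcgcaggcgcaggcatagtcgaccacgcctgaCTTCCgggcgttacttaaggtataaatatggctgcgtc
Kansl2 (host of Snora2b, chr15:98534230-98534309, minus strand): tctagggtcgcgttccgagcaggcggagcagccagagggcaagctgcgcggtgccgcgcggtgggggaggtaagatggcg
Eef1b2 (host of Snora41, chr1:63176791-63176870, plus strand): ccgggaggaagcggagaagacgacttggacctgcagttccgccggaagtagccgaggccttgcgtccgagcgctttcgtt
Rpsa (host of Snora62, chr9:120127726-120127805, plus strand): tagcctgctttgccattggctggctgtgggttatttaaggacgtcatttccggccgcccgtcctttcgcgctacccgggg
Ncl (host of Snora75, chr1:86359416-86359495, minus strand): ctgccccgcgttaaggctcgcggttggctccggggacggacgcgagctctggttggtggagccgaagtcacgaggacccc
Promoter entries were found for 19 of the 23 hosts, and 8 of them (42.1%) held such letters, among them Tcp1 and Snhg3, against 21.2% of 27025 genes searched the same way on the transcript strand.

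The mean log2 signals of the 24 RNAs ran from 3.52 for Snora35 to 16.11 for Snora16a, and their median was 9.65. Signals of different probe sets are not comparable as amounts. The 6 brightest were Snora16a, Scarna17, Snora73b, Snora21, Snora30 and Snora73a, and none of the 24 reached the ceiling on any array. The spread between mice left by the model, with its terms for group and sex, was wide: the median residual SD was 0.43 for the 22 tested RNAs, against 0.18 for all 19985 genes tested and 0.21 for the 9739 other tested genes within the same range of signals. Snora62 (1.09), Snora75 (0.88) and Scarna2 (0.71) varied most between mice of one group, and Snora78 (0.11) and Snora20 (0.22) least. Snora35, known as a brain RNA from an intron of the serotonin receptor gene Htr2c, was dim in all 3 groups, and so was Htr2c itself, with a mean of 3.68.

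**Figure D1:**
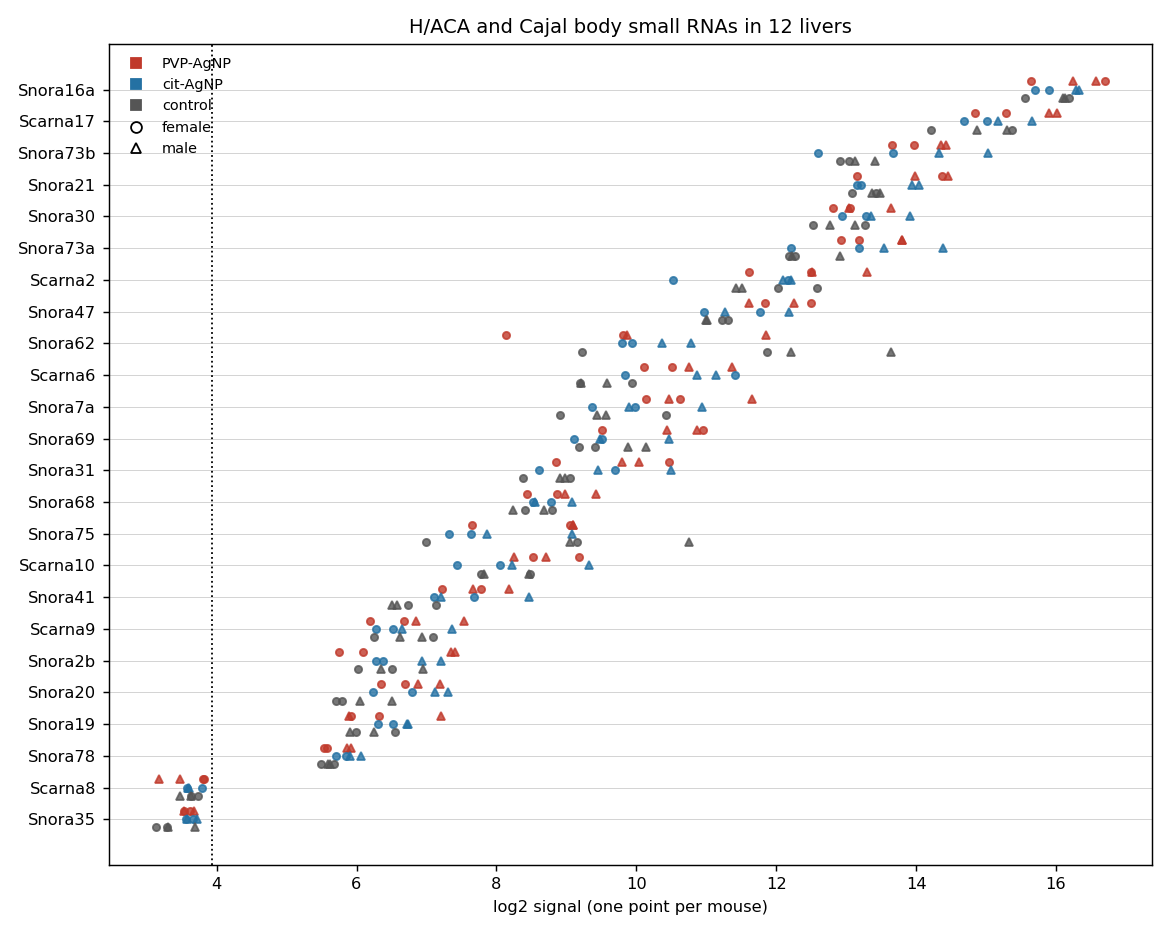
Log2 signal (x axis) of the 24 RNAs (rows) in each of 12 livers, with PVP-AgNP in red, cit-AgNP in blue and control in grey, circles for females and triangles for males; the dotted line is the lower limit for testing, 3.93. The points of Snora62 and Snora75 are spread more widely than those of Snora78 or Snora20, and Scarna8 and Snora35 lie left of the line.

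The first comparison asks whether the PVP-coated particles changed these RNAs. None of the 22 passed the test against control, but as a group their fold changes lay to one side: 20 of 22 log2 fold changes were above 0, with a median of 0.59, while 49.3% of all genes tested were above 0, with a median of -0.0023. At an unadjusted p under 0.05, 11 RNAs were higher and 1 was lower in PVP-AgNP livers, where the background is 8.05% of genes higher and 12.2% lower. After adjustment over all genes by limma, 0 RNAs were called in either direction, beside 3 genes called higher (0.015%) and 5 called lower (0.025%). In 5 RNAs, Scarna6, Snora41, Snora47, Snora73a and Snora73b, all 4 PVP-AgNP livers lay above all 4 control livers, where 2.98% of genes did so; no RNA had all 4 below, where 4.92% of genes did.

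The median was smaller in the fits that used the measure of array quality. That measure was lower on average in PVP-AgNP than in control livers, so these fits cannot tell coating and array quality apart. The median log2 fold change was 0.22 once the exon over intron area was added to the model, with 16 of 22 above 0. At an unadjusted p under 0.05, 4 RNAs were then higher, as were 811 of 19985 genes. Without PVP-AgNP replicates 1 and 4 the median was 0.29, with 4 RNAs and 823 genes higher at that p. The count of RNAs higher at an unadjusted p under 0.05 was 7 without control replicate 1 (1351 genes) and 7 without PVP-AgNP replicate 1 (1106 genes). It was 6 without PVP-AgNP replicate 4 (1045 genes), where the main fit had 1609 genes higher. Without PVP-AgNP replicate 2, 11 RNAs had all remaining PVP-AgNP livers above all control livers, as did 1376 of 19985 genes.

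Scarna6, a Cajal body RNA that in human cells combines a C/D and an H/ACA domain, had the largest value above control for both coatings. Its log2 signals were 10.11 and 10.51 in PVP-AgNP females and 11.37 and 10.76 in PVP-AgNP males, 9.83 and 11.41 in cit-AgNP females and 11.13 and 10.86 in cit-AgNP males, and 9.20 and 9.94 in control females and 9.58 and 9.21 in control males. All 4 PVP-AgNP livers and 3 of 4 cit-AgNP livers lay above the highest control liver. The log2 fold change was 1.21 (SE 0.34, limma adjusted p = 0.141) for PVP-AgNP and 1.33 (SE 0.34, adjusted p = 0.389) for cit-AgNP, so neither passed.

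Snora20, an H/ACA RNA from Tcp1, had the smallest p of the 22 for both coatings and one of the smallest spreads. It stood at 6.36 and 6.69 in PVP-AgNP females and 7.19 and 6.87 in PVP-AgNP males, at 6.79 and 6.24 in cit-AgNP females and 7.31 and 7.12 in cit-AgNP males, and at 5.71 and 5.79 in control females and 6.04 and 6.50 in control males. Within each sex every exposed liver was above every control liver, although across the sexes the exposed females overlapped with the control males. The log2 fold change was 0.77 (SE 0.15, limma adjusted p = 0.0718) for PVP-AgNP and 0.85 (SE 0.15, adjusted p = 0.145) for cit-AgNP. Neither passed.

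Snora73a and Snora73b are near-identical copies of the RNA known in human cells as U17 or E1, which is needed for cutting the precursor of the small ribosomal subunit's RNA rather than for pseudouridylation. Their probe sets may share signal, so they are not independent. Snora73b stood at 13.66 and 13.97 in PVP-AgNP females and 14.36 and 14.43 in PVP-AgNP males, at 12.59 and 13.67 in cit-AgNP females and 15.03 and 14.32 in cit-AgNP males, and at 13.04 and 12.90 in control females and 13.41 and 13.13 in control males. The PVP-AgNP livers lay above all controls, whereas cit-AgNP livers held both the lowest and the highest values of the 12. Its log2 fold change was 0.98 (SE 0.30, limma adjusted p = 0.153) for PVP-AgNP and 0.78 (SE 0.30, adjusted p = 0.637) for cit-AgNP, and a second probe set of Snora73b gave a difference of 0.99 for PVP-AgNP and 0.80 for cit-AgNP. For Snora73a the log2 fold change was 1.03 (SE 0.28, adjusted p = 0.132) for PVP-AgNP and 0.93 (SE 0.28, adjusted p = 0.510) for cit-AgNP, but the lowest PVP-AgNP liver, 12.92, was just above the highest control, 12.90.

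Snora41, from Eef1b2, stood at 7.78 and 7.22 in PVP-AgNP females and 7.67 and 8.19 in PVP-AgNP males, against 7.14 and 6.74 in control females and 6.51 and 6.58 in control males. Snora47, from Zbed3, stood at 12.50 and 11.84 in PVP-AgNP females and 11.61 and 12.26 in PVP-AgNP males, against 11.22 and 11.31 in control females and 11.01 and 11.00 in control males. In both H/ACA RNAs the groups did not overlap. The log2 fold change for PVP-AgNP was 0.98 for Snora41 (SE 0.30, limma adjusted p = 0.153) and 0.92 for Snora47 (SE 0.27, adjusted p = 0.146). For cit-AgNP it was 0.87 for Snora41 (adjusted p = 0.569) and 0.41 for Snora47 (adjusted p = 0.909). Snora7a, from Rpl32, had a log2 fold change of 1.14 for PVP-AgNP (SE 0.40, adjusted p = 0.182) and 0.47 for cit-AgNP, and its lowest PVP-AgNP liver, 10.14, lay below its highest control liver, 10.42.

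**Figure D2:**
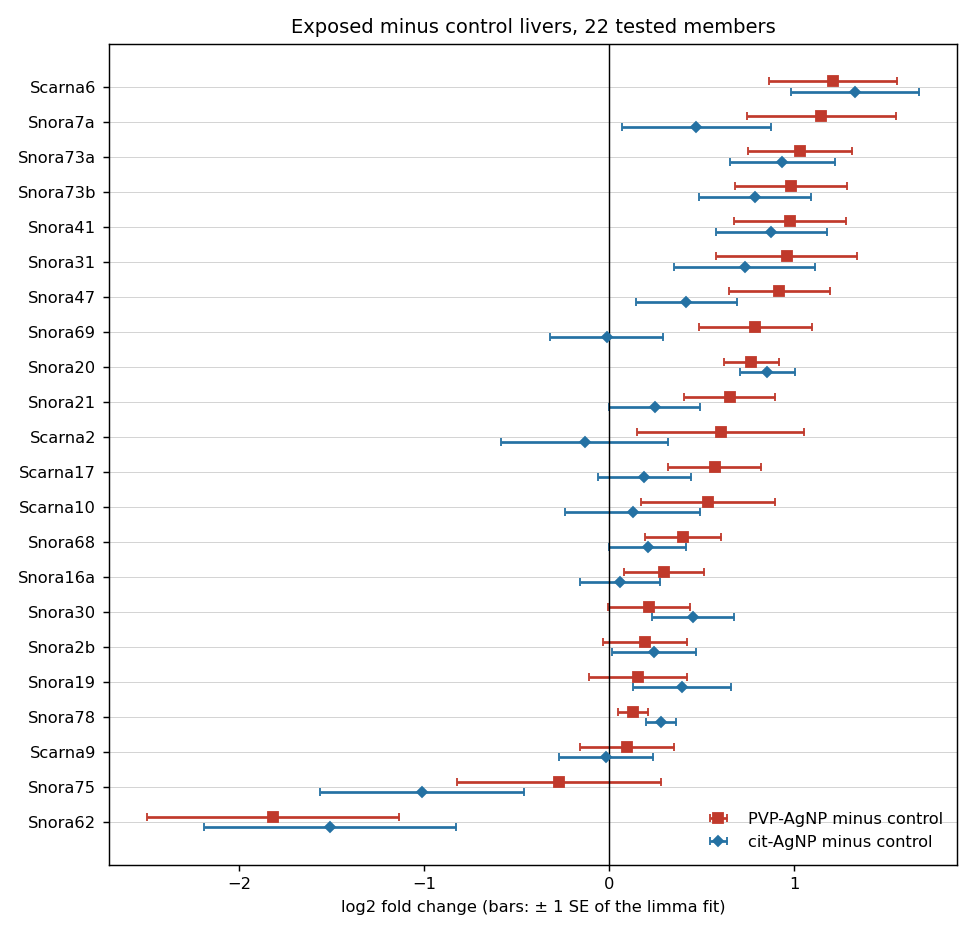
Fitted log2 fold change against control (x axis) of the 22 tested RNAs (rows), with red squares for PVP-AgNP, blue diamonds for cit-AgNP and bars of 1 SE on each side. Most points lie right of 0, up to 1.21 for PVP-AgNP and 1.33 for cit-AgNP in Scarna6, and Snora62 lies farthest left, at -1.82 and -1.51.

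Snora62 and Snora75 lay on the other side. Snora62, the E2 RNA from Rpsa, stood at 9.80 and 8.14 in PVP-AgNP females and 11.85 and 9.86 in PVP-AgNP males, at 9.93 and 9.80 in cit-AgNP females and 10.78 and 10.37 in cit-AgNP males, and at 11.86 and 9.22 in control females and 13.64 and 12.21 in control males. Control replicate 4, at 9.22, lay below all cit-AgNP livers and 3 of 4 PVP-AgNP livers, and the other 3 controls lay above all exposed livers. Its log2 fold change was -1.82 (SE 0.68, limma adjusted p = 0.194) for PVP-AgNP and -1.51 (SE 0.68, adjusted p = 0.759) for cit-AgNP.

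Snora75, the U23 RNA from the nucleolin gene Ncl, stood at 9.05 and 7.65 in PVP-AgNP females and 9.09 and 9.09 in PVP-AgNP males, at 7.32 and 7.63 in cit-AgNP females and 9.08 and 7.86 in cit-AgNP males, and at 9.15 and 6.99 in control females and 10.75 and 9.06 in control males. The control livers spanned the widest range and enclosed every exposed liver. The log2 fold change was -0.27 (SE 0.55, limma adjusted p = 0.80) for PVP-AgNP and -1.01 (SE 0.55, adjusted p = 0.855) for cit-AgNP.

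Among the Cajal body RNAs the log2 fold changes for PVP-AgNP ran from 0.094 to 1.21. Scarna17 had a log2 fold change of 0.57 for PVP-AgNP (SE 0.25, limma adjusted p = 0.236) and 0.19 for cit-AgNP. Scarna10, known from human cells as U85, a mixed guide for U5 RNA, had 0.53 (SE 0.36) for PVP-AgNP and 0.13 for cit-AgNP, and Scarna9, a guide for methylation of U2 RNA in human cells, had 0.094 (SE 0.25) for PVP-AgNP and -0.018 for cit-AgNP. Scarna2, another U2 methylation guide in human cells and the 1 RNA outside a host gene, stood at 11.61 and 12.50 in PVP-AgNP females and 12.52 and 13.30 in PVP-AgNP males, at 10.52 and 12.16 in cit-AgNP females and 12.10 and 12.21 in cit-AgNP males, and at 12.02 and 12.58 in control females and 11.42 and 11.50 in control males. The groups overlapped, and the log2 fold change was 0.60 (SE 0.45) for PVP-AgNP and -0.13 (SE 0.45) for cit-AgNP. Among the brightest, Snora16a had 0.30 (SE 0.21) for PVP-AgNP and 0.058 for cit-AgNP. Snora21 had 0.65 (SE 0.25) for PVP-AgNP and 0.24 for cit-AgNP, and Snora30 had 0.22 (SE 0.22) for PVP-AgNP and 0.45 for cit-AgNP.

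The second comparison asks whether the citrate-coated particles changed the RNAs. Both coatings were compared with the same 4 control mice, so their values are not independent. For cit-AgNP, 17 of 22 log2 fold changes were above 0, with a median of 0.26, where 50.1% of all genes tested were above 0. With 1 mouse left out at a time, the median ran from 0.21 without cit-AgNP replicate 3 to 0.43 without control replicate 2. At an unadjusted p under 0.05, 6 RNAs were higher and 1 was lower, where the background is 2.75% of genes higher and 3.82% lower. After adjustment 0 were called, beside 0 genes called higher (0.0%) and 1 called lower (0.005%).

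Only Snora78, an H/ACA RNA that lies in the spans of both Rps2 and Snhg9, had all 4 cit-AgNP livers above all 4 control livers, as 1.93% of genes did, and no RNA had all 4 below, as 2.37% of genes did. It stood at 5.70 and 5.85 in cit-AgNP females and 6.06 and 5.90 in cit-AgNP males, against 5.68 and 5.50 in control females and 5.62 and 5.59 in control males. The gap between the groups was narrow. The log2 fold change was 0.28 (SE 0.08, limma adjusted p = 0.448), and for PVP-AgNP it was 0.13 (adjusted p = 0.375). Without cit-AgNP replicate 1, 7 RNAs had all remaining cit-AgNP livers above control, as did 671 of 19985 genes.

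The third comparison sets the coatings against each other. Of the 22 RNAs, 0 were called between PVP-AgNP and cit-AgNP, where 0.0% of genes were called higher and 0.0% lower, and no RNA's groups were apart (2.36% of genes above, 4.84% below). The log2 fold change was above 0 in 15 of 22, with a median of 0.19, where 49.6% of all genes were above 0; with the exon over intron area in the model the median was -0.011. It was 0.064, with 11 of 22 above 0, without cit-AgNP replicate 1, 0.37 without cit-AgNP replicate 3, 0.095 without cit-AgNP replicate 4, 0.30 without PVP-AgNP replicate 2, 0.10 without PVP-AgNP replicates 1 and 4, and 0.12 with centred arrays. At an unadjusted p under 0.05, 1 RNA was higher and 0 were lower, where the background is 5.29% of genes higher and 8.72% lower. That RNA was Snora69, from the ribosomal protein gene Rpl39, at 10.96 and 9.51 in PVP-AgNP females and 10.44 and 10.87 in PVP-AgNP males, against 9.10 and 9.50 in cit-AgNP females and 10.46 and 9.49 in cit-AgNP males. Its log2 fold change was 0.80 (SE 0.31, limma adjusted p = 0.326), and cit-AgNP replicate 3, at 10.46, lay among the PVP-AgNP livers. Scarna2 (0.74, SE 0.45), Snora75 (0.74, SE 0.55) and Snora7a (0.67, SE 0.40) followed, and Snora62 was at -0.31 (SE 0.68); a difference between the coatings was not detectable at this spread.

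The RNAs varied together from mouse to mouse. In each liver the deviation of every tested RNA from its own mean over the 12 mice was taken, and the median over the 22 RNAs was 0.02, -0.24, 0.44 and 0.69 in PVP-AgNP replicates 1 to 4, -0.49, -0.10, 0.60 and 0.12 in cit-AgNP replicates 1 to 4, and -0.34, -0.03, -0.14 and -0.58 in control replicates 1 to 4. All 22 RNAs were above their own mean in cit-AgNP replicate 3 and 21 were in PVP-AgNP replicate 4, against 2 in cit-AgNP replicate 1 and 1 in control replicate 4. The 4 controls lay below 0, whereas both exposed groups had livers on either side of it.

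The overall level of the arrays moved far less. The median log2 signal over all probe sets was 4.26 ± 0.10 in PVP-AgNP, 4.18 ± 0.03 in cit-AgNP and 4.16 ± 0.03 in control livers (SD, n = 4 each), a difference from control of 0.098 for PVP-AgNP and 0.020 for cit-AgNP. The median log2 signal of the 22 RNAs per array, averaged over a group, differed from control by 0.74 for PVP-AgNP and 0.49 for cit-AgNP. By another measure, the median log2 fold change, the 22 stood at 0.59 for PVP-AgNP and 0.26 for cit-AgNP as deposited. With every array centred on its own median, that median log2 fold change was 0.49 for PVP-AgNP and 0.24 for cit-AgNP. For all genes it was then -0.10 for PVP-AgNP and -0.019 for cit-AgNP.

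**Figure D3:**
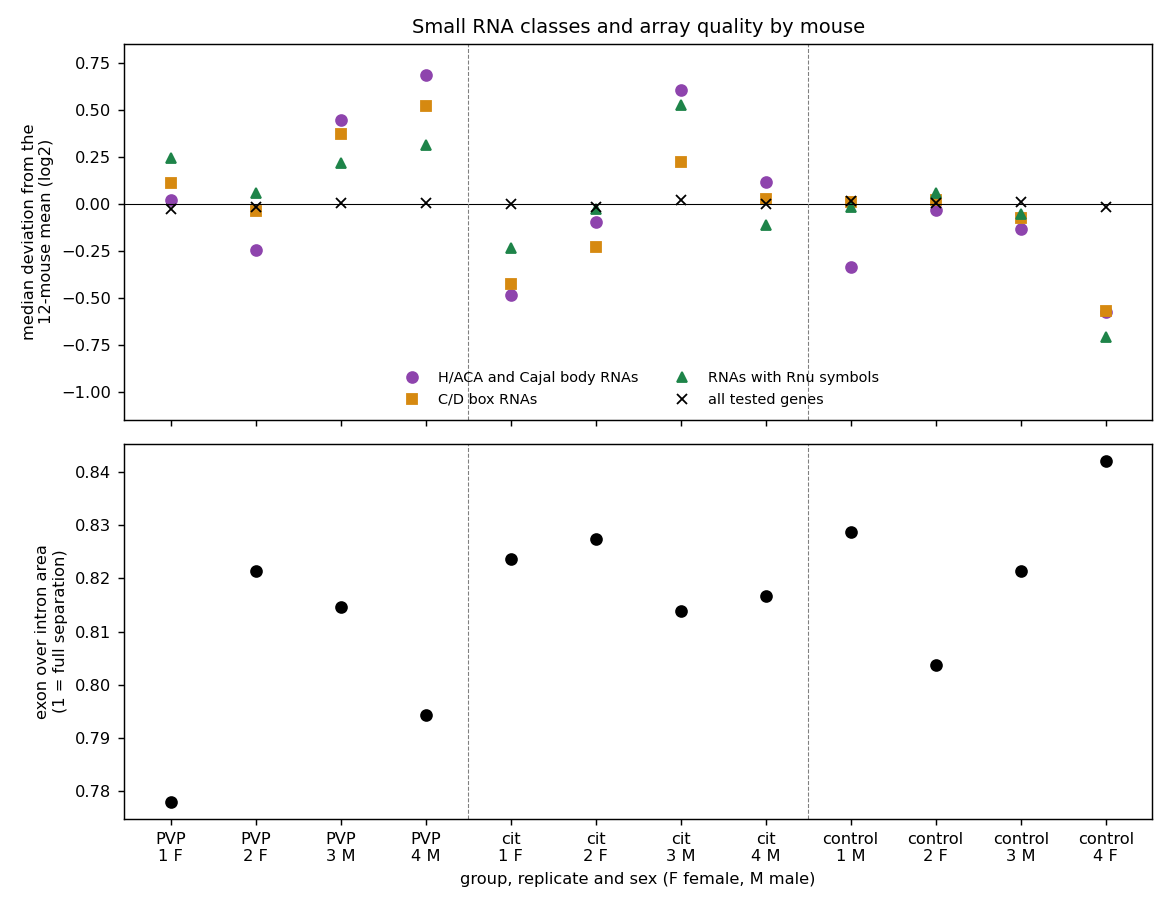
Upper panel: median deviation from the 12-mouse mean (log2) of the 22 tested H/ACA and Cajal body RNAs, the 44 C/D box RNAs, the 15 genes with Rnu symbols (spliceosomal RNAs, a pseudogene and U3 nucleolar RNAs) and all genes tested, in each liver. Lower panel: exon over intron area of the same arrays, lowest at 0.778 in PVP-AgNP replicate 1; in the upper panel the small RNA classes spread from 0.69 to -0.71 while all genes stay near 0.

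Other small nuclear RNAs varied with them. For the 44 tested C/D box RNAs, which guide methylation instead of pseudouridylation, the median deviation was 0.52 in PVP-AgNP replicate 4 and -0.57 in control replicate 4. Against control, 42 of 44 were above 0 with a median of 0.36 for PVP-AgNP, and 29 of 44 with a median of 0.093 for cit-AgNP; 1 of them, Snord16a, passed for PVP-AgNP, with a log2 fold change of 1.09 (SE 0.09, limma adjusted p = 0.0049). That call was lost with quantile normalization, without the sex term, with only the 2 groups compared, with replicate numbers as a block and without PVP-AgNP replicates 1 and 4, where 0 genes were called higher. The 15 tested genes with Rnu symbols hold spliceosomal RNAs, 1 pseudogene and 5 genes of the nucleolar U3 RNA, itself a C/D box RNA. All 15 were above 0 for PVP-AgNP, with a median of 0.51, and 13 were for cit-AgNP, with a median of 0.33. They are not separate measurements, since Rnu3b1, Rnu3b2 and Rnu3b3 had identical values, as did Rnu1b1 and Rnu1b2. The median residual SD of the C/D box RNAs, 0.34, was below that of the H/ACA and Cajal body RNAs. Whether the classes differ was not tested.

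The host transcripts had values nearer to 0. For 14 pairs of an RNA and a host with a probe set of its own, both tested, the median log2 fold change for PVP-AgNP was 0.37 for the small RNAs and -0.012 for the hosts, and for cit-AgNP it was 0.34 for the small RNAs and 0.033 for the hosts. The small RNA's value was larger in size than its host's in 11 of 14 pairs for PVP-AgNP and 12 of 14 for cit-AgNP. These counts take no account of the RNAs' wider spread, a median residual SD of 0.43 against 0.18 for all genes tested. A wider spread by itself gives values of larger size, so the counts cannot show that RNAs and hosts responded differently. By limma, 0 hosts were called in either comparison. For PVP-AgNP, Snora20 had 0.77 and its host Tcp1 -0.34 (SE 0.15, adjusted p = 0.234), and Snora62 had -1.82 and Rpsa 0.26 (SE 0.13, adjusted p = 0.278). Scarna6 had 1.21 and Atg16l1, an autophagy gene, 0.082 (SE 0.16, adjusted p = 0.797), Snora41 had 0.98 and Eef1b2 -0.013 (SE 0.15, adjusted p = 0.971), and Snora47 had 0.92 and Zbed3 -0.092 (SE 0.07, adjusted p = 0.490). Strand was not used in assigning hosts, and some hosts, those of Snora73a, Snora73b, Snora16a, Snora21 and Snora7a among them, had no probe set of their own.

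A list of 52 genes covered the building, localising, trimming and degrading of these RNAs. It also held telomerase genes and, for reference, core proteins of C/D particles. Of the 52, 45 were tested and 0 passed in either comparison with control. For PVP-AgNP, 1 was higher and 11 were lower at an unadjusted p under 0.05, where 8.05% of all genes were higher and 12.2% lower, and the median log2 fold change over the 45 was -0.12. For cit-AgNP, 2 were higher and 4 lower, where 2.75% of all genes were higher and 3.82% lower, and the median was -0.0065. In the core of the particle, the pseudouridine synthase Dkc1 had a log2 fold change of -0.37 for PVP-AgNP (SE 0.13, limma adjusted p = 0.182) and -0.021 for cit-AgNP, and its partner Gar1 had 0.23 (SE 0.08, adjusted p = 0.172) for PVP-AgNP and 0.16 for cit-AgNP. Nhp2 (0.036) and Nop10 (-0.0098) stayed close to 0 for PVP-AgNP. The smallest p for PVP-AgNP belonged to Gemin5, which recognises spliceosomal RNAs for the SMN complex (-0.38, SE 0.06, adjusted p = 0.0583), and to Exosc10, the nuclear exosome's exonuclease that trims small nucleolar RNA ends (-0.44, SE 0.08, adjusted p = 0.0707), followed by the exosome subunit Exosc9 (-0.25, adjusted p = 0.137) and the paraspeckle protein Nono (-0.32, adjusted p = 0.149).

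For cit-AgNP the smallest p in this list belonged to Nop58, a core protein of C/D particles (1.08, SE 0.28, limma adjusted p = 0.384), Ell (-0.70, adjusted p = 0.521), the nucleolar and Cajal body chaperone Nolc1 (0.62, adjusted p = 0.547) and Pih1d1 of the assembly machinery (-0.24, adjusted p = 0.606). Of 21 host long non-coding RNAs listed by symbol, 9 were tested and 0 passed for either coating.

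Sex gave the only differences that passed among these RNAs. In females against males, Snora20 and Snora2b were called lower, where 1.25% of genes were called lower and 0.931% higher. At an unadjusted p under 0.05, 0 RNAs were higher and 11 were lower in females, where the background is 6.36% higher and 8.93% lower. The count of 11 was 7 without cit-AgNP replicate 3, beside 1436 of 19985 genes lower at that p. Without PVP-AgNP replicate 2 it was 7, beside 1874 genes. The log2 difference was below 0 in all but 1 of the 22, Snora47, with a median of -0.43, where 42.7% of all genes tested were above 0.

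Snora2b, an H/ACA RNA from Kansl2, stood at 5.75 and 6.09 in PVP-AgNP females against 7.35 and 7.41 in PVP-AgNP males, at 6.38 and 6.28 in cit-AgNP females against 7.21 and 6.93 in cit-AgNP males, and at 6.51 and 6.02 in control females against 6.35 and 6.95 in control males. The sexes were apart in both exposed groups and overlapped in the controls. Females were lower by a log2 difference of -0.86 (SE 0.18, limma adjusted p = 0.0408), and its host Kansl2 had -0.34 (SE 0.11, adjusted p = 0.156). For Snora20, whose values are given above, females lay below males in each of the 3 groups, with a log2 difference of -0.58 (SE 0.12, limma adjusted p = 0.0375), and its host Tcp1 had -0.064. Snora73a came next, at -0.78 (SE 0.23, adjusted p = 0.129).

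Both calls were lost in most fits without 1 mouse. With 1 mouse left out at a time, Snora20 passed only without control replicate 1, cit-AgNP replicate 1 or PVP-AgNP replicate 2, with adjusted p between 0.0375 and 0.101 over the 12 fits, and Snora2b only without control replicate 1 or control replicate 2, with adjusted p between 0.0157 and 0.103. Neither passed without PVP-AgNP replicates 1 and 4, with every array centred on its median or with all dim genes included.

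**Figure D4:**
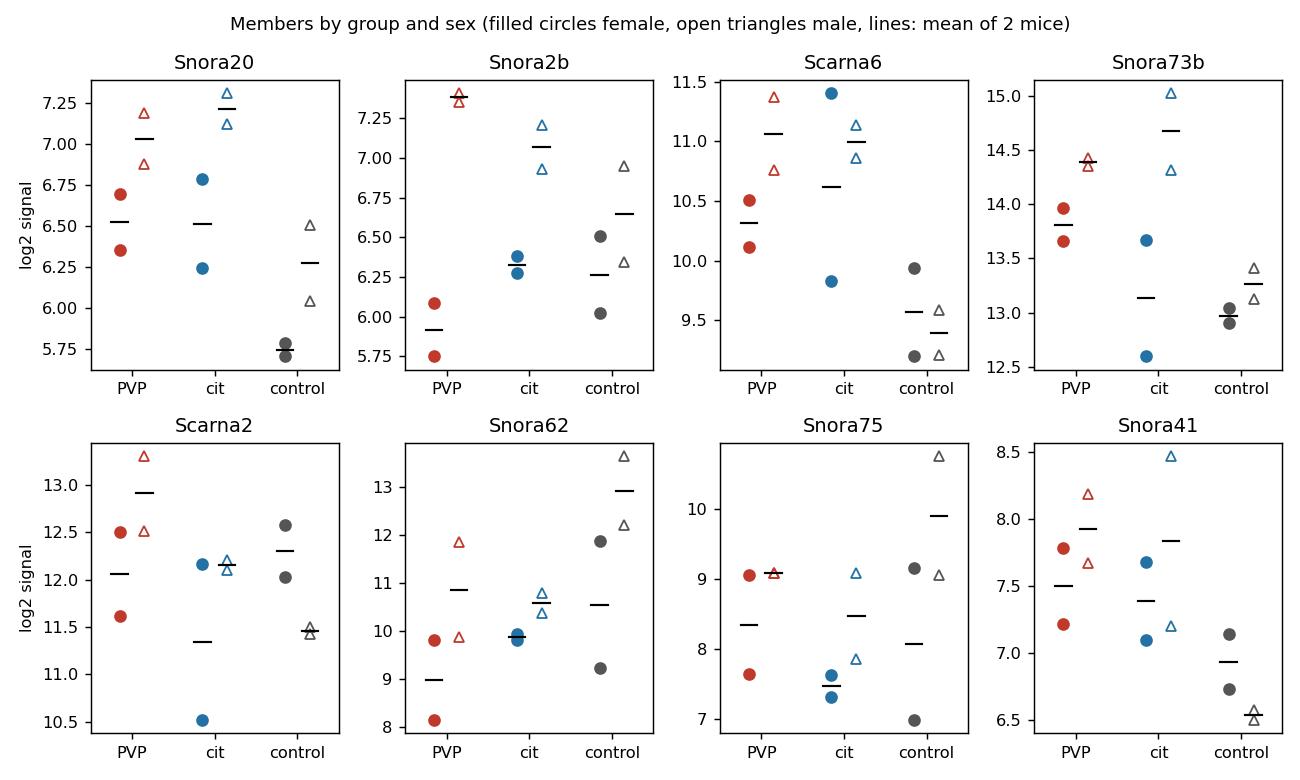
Log2 signal (y axis, one scale per panel) of 8 RNAs in PVP-AgNP, cit-AgNP and control livers, with filled circles for females, open triangles for males and a line at the mean of the 2 mice. In Snora20 females lie below males within each group, and in Snora2b the sexes are apart in PVP-AgNP (5.92 and 7.38) and cit-AgNP (6.33 and 7.07) but overlap in control (6.27 and 6.65).

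Females had lower values for most of the RNAs in each group. They were below males in 20 of 22 RNAs in PVP-AgNP (median -0.53), in 22 of 22 in cit-AgNP (median -0.69) and in 15 of 22 in control livers (median -0.14). The share of all genes was not taken within each group. With the groups fitted together, 42.7% of all genes tested were above 0 for females against males, with a median of -0.024. Most genes were thus lower in females too, and the control count was not tested against that share.

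The effect of each coating was also taken within each sex, from 2 mice per mean. With PVP-AgNP the median log2 fold change of the 22 RNAs was 0.40 in females, with 16 above 0 (48.1% of all genes), and 0.75 in males, with 20 above 0 (49.4%). At an unadjusted p under 0.05, 3 RNAs were higher with PVP-AgNP in females (4.58% of genes) and 0 lower (8.43%), and 12 were higher in males (3.64%) and 0 lower (4.37%). With cit-AgNP the median was 0.059 in females, with 15 above 0 (49.2%), and 0.64 in males, with 19 above 0 (50.9%). At the same p, 1 RNA was higher with cit-AgNP in females (1.58%) and 0 lower (2.41%), and 6 were higher in males (2.45%) and 1 lower (2.72%). After adjustment by limma 0 RNAs were called for either coating in either sex, as 0.0% of genes were.

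With so few mice these values turned on single animals. In females the PVP-AgNP median was 0.0097, with 11 of 22 above 0, without control replicate 4, 0.71 without control replicate 2, 0.093 without PVP-AgNP replicate 1, 0.65 without PVP-AgNP replicate 2 and 0.051 with the exon over intron area in the model. The cit-AgNP median in females was -0.15, with 9 of 22 above 0, without control replicate 4, and -0.10, with 7 of 22 above 0, without cit-AgNP replicate 2. It was 0.36 without control replicate 2, 0.21 without cit-AgNP replicate 1, 0.091 with the area in the model and 0.035 by quantile normalization, so the female value for cit-AgNP has no settled sign. In males the PVP-AgNP median was 0.47 with the area in the model. Leaving out a single male of the groups compared moved that median between 0.55 (control replicate 1) and 0.95 (PVP-AgNP replicate 3). The cit-AgNP median in males moved between 0.35 (cit-AgNP replicate 3 left out) and 0.73 (control replicate 3 left out). Such fits hold 1 male in a group, so their counts at an unadjusted p are not given.

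The difference between the sexes in response was tested directly. For both coatings 0 RNAs were called, as 0.0% of genes were, and the smallest adjusted p was 1.00. The log2 effect was higher in females than in males in 6 of 22 RNAs for PVP-AgNP, as in 47.1% of genes, and in 3 of 22 for cit-AgNP, as in 49.6%. At an unadjusted p under 0.05, 0 RNAs had a higher effect in females for PVP-AgNP (1.71% of genes) or for cit-AgNP (0.876%), and 1 had a lower one for PVP-AgNP (1.91%) and 1 for cit-AgNP (1.57%). For PVP-AgNP this was Snora2b, whose effect in females minus that in males was -1.08 (SE 0.33), from -0.35 in females and 0.73 in males. For cit-AgNP it was Snora73b, at -1.25 (SE 0.50), from 0.16 in females and 1.41 in males. Scarna2 had differences as large, -1.69 (SE 0.75) for PVP-AgNP and -1.65 (SE 0.75) for cit-AgNP, with a wider error.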

How the data were processed

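Total RNA, extracted with Trizol, was measured on Affymetrix whole-transcript arrays, 1 per mouse, per the labels' protocols. The deposited values are log2 signals; the submitters' processing notes list RMA and Transcriptome Analysis Console 4.0.1.36 with no role or order, and the genome build behind the signals is not given in the sources used here. No further normalization was applied. Gene names came from the platform's table, updated through a RefSeq table of GRCm38.p6, which also gave host genes by span, without strand. RNAs with a near-identical copy may share signal. No array measurement here separates a small RNA from its precursor.

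The test, for genes whose mean exceeded the 40th percentile over probe sets, was limma 3.58.1 under R 4.3.3 (eBayes with a trend), with terms for group and sex, two-sided, adjusted by Benjamini and Hochberg over 19985 genes at a threshold of 0.05. Effects within each sex came from 6 means of group by sex. With nothing on cages or litters in the labels, p-values measure the spread between these mice, and 12 arrays limit the precision. The fit was tested on simulated data. Mice of the same replicate number differed in sex for numbers 1 and 4, and their residuals correlated between -0.44 and 0.23, so the numbers were not used as pairs.

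Named were, for each comparison of groups, the 5 RNAs of largest and the 5 of smallest log2 fold change and the 3 of smallest p, the 6 brightest, the 3 of smallest p for sex and for each sex difference, and 10 measured RNAs fixed by name; Scarna8 and Snora35 are named because they were not tested. The members, lists and alternatives were chosen with earlier results of these data known. Alternatives were filtering, centring, quantile normalization, other models, array quality and leaving out each mouse.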

Additional observations from a re-analysis of the deposited data

Results flagged for a closer look

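Of 84 groups of 4 values examined, 6 had 1 mouse apart from the other 3 by Dixon's criterion, and chance flags about 1 in 20 groups. In PVP-AgNP livers, replicate 2 was lowest for Snora75, at 7.65 against 9.05 to 9.09 in the other 3, and for the median over all 24 RNAs, at 8.69 against 9.95 to 10.12. In cit-AgNP livers, replicate 1 was lowest for Scarna2, at 10.52 against 12.10 to 12.21, and highest for the untested Scarna8, at 3.79 against 3.57 to 3.60. In control livers, replicate 4 was lowest for Snora16a, at 15.56 against 16.09 to 16.18, and replicate 1 was highest for Snora73a, at 12.90 against 12.18 to 12.27.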

How the results depend on the processing

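No RNA was called against control in any of 22 settings, and 1003 of 1060 values of named RNAs kept their direction and their side of the threshold. Only Snora20 and Snora2b, both for sex, had passed in the main fit, so most of these values had no call to lose. Of the rest, 30 changed direction and 27 were calls of those RNAs that were lost. For PVP-AgNP the 8 genes called became 4 without the filter, 3 with centred arrays, 0 by quantile normalization, 2 without the sex term, 0 with only the 2 groups, 5 with probe sets averaged, 52 with a constant prior variance, 2 once the exon over intron area entered the model and 0 without PVP-AgNP replicates 1 and 4, whose area was lowest. For cit-AgNP the 1 gene became 0 with centred arrays, 2 by quantile normalization, 0 without the sex term, 0 with only the 2 groups, 2 with a constant prior variance, 5 with the area in the model and 0 without those 2 arrays; between the coatings quantile normalization called 1. For sex, 435 genes became 930 with the area in the model, and the 2 RNAs called became 0 without the filter, 0 with centred arrays, 4 with the area and 0 without the 2 arrays. With a replicate block, the paired form of the fit, 0 genes were called for PVP-AgNP, 0 for cit-AgNP and 56 for sex, with 0 of the RNAs. RNAs above all controls numbered 3 for PVP-AgNP with centred arrays, beside 260 of 19985 genes, where the main setting had 5 RNAs and 596 genes. For cit-AgNP they numbered 2 with centred arrays (276 genes) and 2 by quantile normalization (340 genes). The main setting there had 1 RNA and 386 genes. With the area in the model the sign turned for the median between the coatings (-0.011), Scarna9 (-0.13), Snora19 (-0.036) and Snora16a (-0.14) with PVP-AgNP, Snora16a with cit-AgNP (-0.013) and Scarna6 between the coatings (0.18); without the 2 arrays it turned for Snora19 (-0.070), Snora16a (-0.056) and Scarna6 between the coatings (0.13), and with centred arrays for Scarna9 (-0.0049). The causes were not tested.

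Leaving out 1 mouse at a time gave 1 to 61 genes for PVP-AgNP (61 without PVP-AgNP replicate 3) and 0 to 6 for cit-AgNP. For sex it gave 245 to 605 genes and 0 to 2 RNAs called. With PVP-AgNP, 5 to 11 RNAs lay above control, as did 596 to 1376 of 19985 genes. Below control lay 0 to 1 RNAs and 983 to 1969 genes. With cit-AgNP, 1 to 7 RNAs and 386 to 767 genes lay above control, and 0 to 1 RNAs and 474 to 1101 genes below. Signs turned for Scarna9 (-0.087 to 0.32), Snora19 (-0.13 to 0.35) and Snora75 (-0.80 to 0.17) with PVP-AgNP, for Scarna2 (-0.36 to 0.28), Scarna9 (-0.18 to 0.21), Snora69 (-0.21 to 0.15), Snora16a (-0.044 to 0.19) and Scarna10 (-0.23 to 0.39) with cit-AgNP, and for Scarna6 (-0.43 to 0.16) and Snora62 (-0.72 to 0.048) between the coatings.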
